A study of Mus musculus with 24 samples.

Results

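The genes described here are 33 stress response and chaperone genes, followed after interferon in the mouse fibroblast line NIH-3T3, which was derived from embryos. They were chosen by name for what they are known to do, through every probe set (the group of short array probes that reports 1 transcript) whose platform annotation gives 1 of the 33 symbols. This gave 76 probe sets of the 34945 that carry a single symbol, and 33 of 18193 genes. Of these, 67 probe sets and 32 genes passed the filter on low values (above log2 4 on at least 3 arrays), and Hspb1, a small heat shock protein, did not, with every value of its 2 probe sets at or below 3.00. The genes fall into 4 roles: the unfolded protein response (9 genes), the integrated stress response (9), heat shock (7) and oxidative stress (8).

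Total cellular RNA was measured on 24 arrays in 7 groups, all started by a change to fresh medium. The 1 h groups, of 4 arrays each, had received mock medium, IFN-alpha at 100 U/ml or IFN-gamma at 100 U/ml. They had also received 4sU (4-thiouridine, a nucleoside that cells build into new RNA) at 200 µM up to 60 min, with no start given. The 3 h groups, of 3 arrays each, had received these treatments and 500 µM 4sU between 150 and 180 min. A seventh group of 3 arrays was mock cells at 1 h that had no 4sU. The labels name no altered gene and do not say whether replicates were separate cultures, so the p-values speak for the spread among arrays, and this may be technical.

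Cells meet damage with a few separate programmes. Unfolded proteins in the endoplasmic reticulum activate the sensors Ire1, Perk and Atf6, of which Ire1 splices Xbp1 mRNA, and the result is more chaperone and more disposal of faulty protein. The integrated stress response starts with phosphorylation of eIF2alpha, which slows translation in general but favours that of Atf4, a transcription factor that raises Ddit3 (CHOP), Trib3, Chac1 and Asns. Heat shock factor 1 raises the cytosolic chaperones, and Nrf2 raises the enzymes that make glutathione and reduce thioredoxin. Sod2, the mitochondrial superoxide dismutase, is a long-known target of inflammatory cytokines.

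The values are GCRMA signals on the log2 scale, so 1 unit is a doubling. A difference is that between group means, with its standard error (SE) from 1 limma fit over all arrays, and it was called where the p, adjusted over all 19305 probe sets by the Benjamini-Hochberg method, was under 0.05. The probe set of highest mean signal represents a gene, and its other probe sets are given where they differ. Array medians lay between 2.95 and 3.11, and 16933 to 17688 probe sets lay above log2 4. All 10 fibroblast markers were above log2 4 (means 9.96 to 13.81), as were 1 of 8 leukocyte markers (Cd14, 5.35) and 0 of 5 epithelial and 0 of 4 endothelial ones. The difference between 3' and 5' actin probe sets, a measure of RNA integrity, exceeded 2 on 5 arrays (2.22 to 3.43; 0.78 to 1.37 on the others): replicate 2 of each treated or mock group at 1 h with 4sU, and replicates 2 and 3 of mock without 4sU. The median SD of the members' probe sets within a group was 0.341 to 0.455 at 1 h and 0.0949 to 0.124 at 3 h, so the 3 h groups are the tighter ones. Same-numbered arrays of the 3 treatments deviated together at each time, so in comparisons among these treatments the result with the replicate number as a block is given where it changes a call. Mock arrays of the 2 times, and of mock with and without 4sU, did not pair by a limit of 0.1 on the lowest correlation. Values below for those comparisons are without a block. The block fit used for the treatments still placed the arrays without 4sU in blocks by their number. The limit divides narrowly: correlations of deviations were 0.0809 to 0.802 for mock with and without 4sU. For mock and IFN-gamma at 3 h, taken as paired, they were 0.128 to 0.587.

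After 3 h of IFN-gamma, Sod2 and Gclm were the members that rose. Sod2, which converts superoxide to hydrogen peroxide in mitochondria, rose 2.72-fold, and Gclm, the regulatory subunit of the enzyme that makes the glutathione precursor, rose 2.14-fold, each on the probe set of its smallest p. Neither was called after IFN-alpha. The chaperones of the endoplasmic reticulum and of the cytosol, and the Atf4 target genes, were not called after either interferon at either time in the fit without a block.

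The promoter of Sod2 holds a match to the interferon-gamma activated site, the palindrome TTCNNNGAA. Promoter windows were the 250 bases before each RefSeq transcript start (GRCm38.p6), and 29 of the 33 genes have such a window in the table used. A match was found in 2306 of 32851 promoters (7.02%) and in those of Sod2 and Txnrd1 among the members, the latter from 2 start sites. The stretches around them are shown because a Sod2 probe set had the largest difference of all member probe sets after 3 h of IFN-gamma (1.44). By the probe set that represents a gene, Gclm gave 1.11 and Sod2 0.99. They are written 5' to 3' on the gene's strand with the matched letters in capitals, and lie at chr17:13007594-13007722 (+), chr10:82858956-82859014 (+) and chr10:82860238-82860306 (+).
Sod2: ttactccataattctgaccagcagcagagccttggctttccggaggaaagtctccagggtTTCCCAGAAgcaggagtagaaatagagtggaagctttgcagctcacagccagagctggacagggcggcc
Txnrd1, first start: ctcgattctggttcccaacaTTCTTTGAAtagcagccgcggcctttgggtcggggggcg
Txnrd1, second start: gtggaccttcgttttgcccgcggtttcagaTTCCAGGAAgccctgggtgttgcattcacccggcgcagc
The Sod2 match starts 185 bases before the transcript start, and those of Txnrd1 start 230 and 73 bases before theirs. The palindrome reads the same on both strands. A match of letters is a description and does not show a bound site. Gclm has no match in its window. The interferon-stimulated response element GAAANNGAAA, searched on both strands, was found in 2.98% of promoters and in that of Ppp1r15a alone among the members.

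On Sod2 probe set 1454976_at the mock arrays at 3 h read 7.76, 7.90 and 7.73, the IFN-alpha arrays 7.74, 7.98 and 7.88, and the IFN-gamma arrays 9.34, 9.19 and 9.20. The IFN-gamma arrays stood well above both other groups, which overlapped each other. The difference from mock was 1.44 (SE 0.12, n = 3 and 3, adjusted p = 5.68e-08) and was called whichever of the 6 arrays was left out. On 1417193_at the mock arrays read 10.22, 10.26 and 10.27 and the IFN-gamma arrays 11.34, 11.33 and 11.27, a difference of 1.06 (SE 0.13, adjusted p = 2.21e-05). The third probe set, 1448610_a_at, which represents the gene by its highest mean, read 10.89, 10.95 and 10.71 in mock and 11.80, 11.95 and 11.78 after IFN-gamma. The groups were as clearly apart there, but the spread of this probe set in the 1 h groups entered its SE of 0.28. Its difference of 0.99 had an adjusted p of 0.084, and of 0.000344 with the replicate block. The fourth probe set, 1417194_at, lay near log2 4 in mock (4.2 to 4.38) and at 5.45 to 5.52 after IFN-gamma, without a call.

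**Figure D1:**
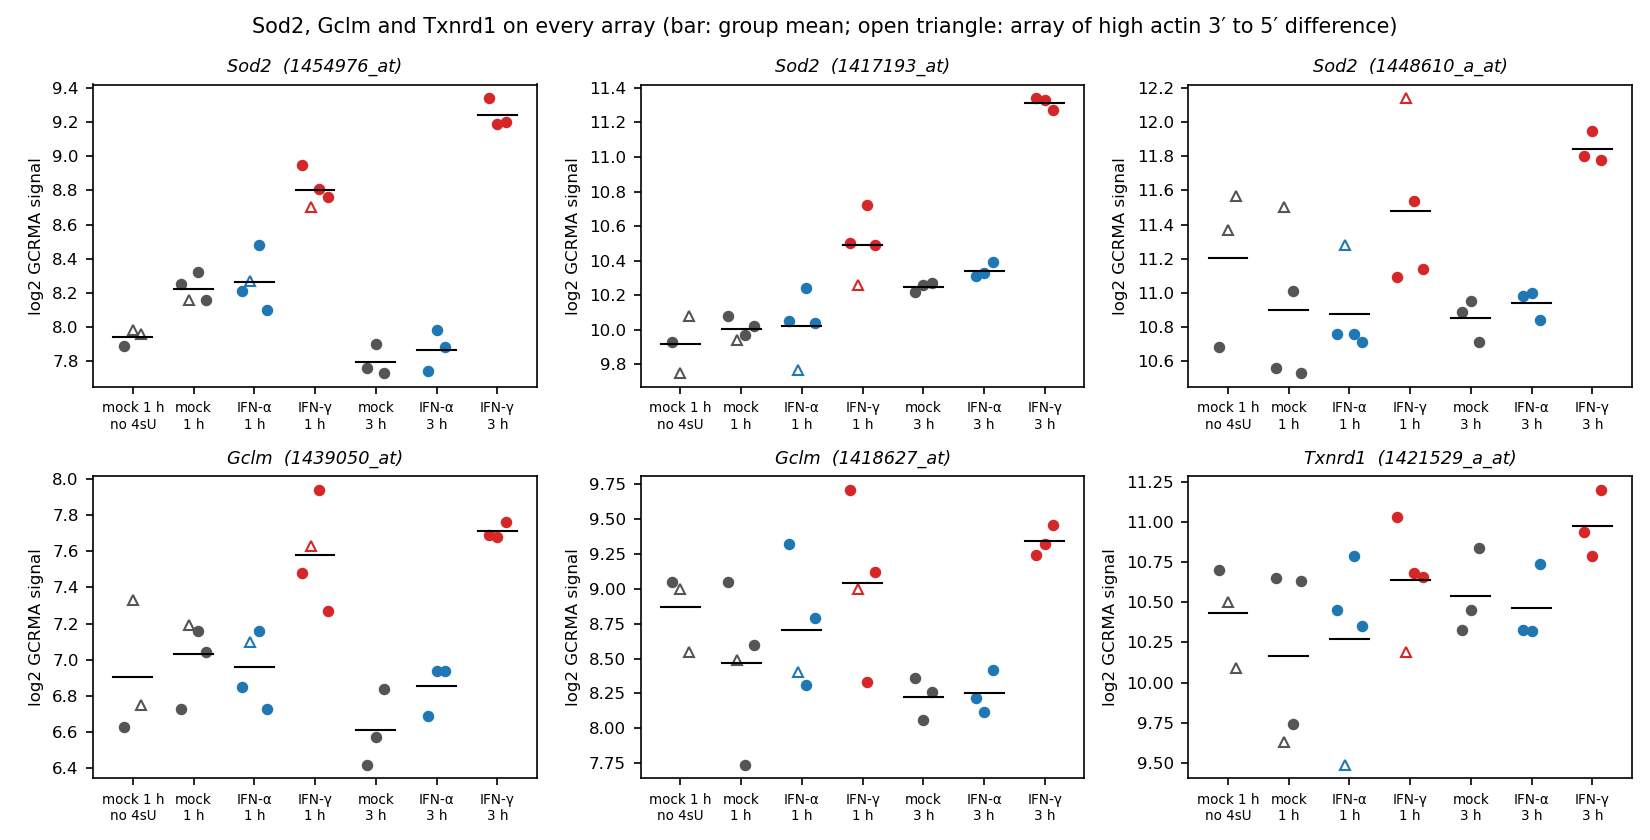
Log2 GCRMA signal of 3 Sod2, 2 Gclm and 1 Txnrd1 probe sets on every array (points; bars are group means, open triangles the 5 arrays with a high actin 3' to 5' difference), by group along the horizontal axis. The 3 IFN-gamma arrays at 3 h lie above all mock and IFN-alpha arrays of that time on the Sod2 and Gclm probe sets, while on the Txnrd1 probe set shown, 1421529_a_at, they overlap the mock arrays.

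Gclm read 6.42, 6.57 and 6.84 on 1439050_at in mock cells at 3 h and 7.69, 7.68 and 7.76 after IFN-gamma. The 2 groups did not overlap, and the difference was 1.10 (SE 0.20, adjusted p = 0.00172). This call too was kept without any 1 of the 6 arrays. Its other probe set, 1418627_at, read 8.36, 8.06 and 8.26 in mock and 9.24, 9.32 and 9.46 after IFN-gamma. That difference was 1.11 with an SE of 0.32 (adjusted p = 0.102), and it was called with the replicate block (adjusted p = 0.000233). In bulk RNA, more cells with a transcript and more transcript per cell cannot be told apart.

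Hsph1, the Hsp110 chaperone, which exchanges the nucleotide of Hsp70, was the 1 member lower after IFN-gamma at 3 h with the block, and it was not called without it. On 1425993_a_at mock cells read 11.14, 10.93 and 11.20, IFN-alpha cells 10.72, 10.75 and 10.91, and IFN-gamma cells 10.57, 10.57 and 10.49. The 3 groups did not overlap, with mock the highest and IFN-gamma the lowest. The difference of IFN-gamma from mock was -0.55 (SE 0.15), with an adjusted p of 0.0866 and of 0.0353 with the block. It was also called with only the 3 h groups compared in the fit (0.0199), with array weights (3.48e-05) and without the 5 arrays of high actin difference (0.025). In the fit without a block, leaving out any 1 of the 6 arrays gave no call (adjusted p 0.0954 to 0.415). The second probe set, 1423566_a_at, gave -0.63 with an SE of 0.77 and no call. For IFN-alpha the first gave -0.30 (SE 0.15, adjusted p = 1).

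Txnrd1, which reduces thioredoxin with NADPH, gave positive differences on its 3 probe sets after 3 h of IFN-gamma, from 0.44 to 0.75, and none was called. On 1424487_x_at mock cells read 5.00, 4.75 and 5.31, IFN-alpha cells 4.45, 4.92 and 4.60, and IFN-gamma cells 6.20, 5.75 and 5.36. IFN-gamma lay above both groups, by a small margin over the highest mock array. The difference from mock was 0.75 (SE 0.34, adjusted p = 0.859, and 0.107 with the block).

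By 1 probe set per gene, 0 of 32 members were called after IFN-gamma at 3 h, against 2.35% of all genes tested (3 members had an unadjusted p under 0.05). Over all probe sets 3 of 67 were called, all higher, against 1.99% of all probe sets. With the replicate block 5 were higher and 1 lower, against 3.4%. The shares of probe sets are above those of the array as a whole. All the higher ones are of Sod2 and Gclm, so several report the same gene. Nothing particular to the members as a group is read from these counts. Counting a gene by any of its probe sets, which gives 2 genes here, Sod2 and Gclm, was added after the values had been seen. Sod2 and Gclm belong to the 8 oxidative stress genes, of which 4 had positive and 4 negative differences. Gclc, the catalytic partner of Gclm, gave -0.45, Srxn1 -0.35 and Hmox1, which breaks down haem, 0.01 (95% interval -1.22 to 1.23). None of these 3 passed.

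The wider list of stress genes held 58 measured genes in the same 4 roles, and 2 of them rose after IFN-gamma at 3 h, a share near the 2.35% of all genes tested. Mgst1, a microsomal glutathione transferase, rose from a mean of 8.84 to 10.05, by 1.2 (SE 0.18, adjusted p = 0.000158). Nupr1, a small stress-induced nuclear protein, rose from 8.03 to 9.20, by 1.17 (SE 0.26, adjusted p = 0.0162). With the block Atf3, a stress-induced transcription factor (adjusted p = 0.00738), and Bach1, a repressor of Nrf2 targets (0.45, adjusted p = 0.0479), were also higher, where without it their adjusted p were 0.136 and 1. The block called 305 genes higher and 72 lower of all 9421, beside 4 of the 58 higher and 0 lower. The mean of Atf3 in mock cells at 3 h was 3.74, below log2 4, and the rise was at least 1.65-fold with values under log2 4 raised to it. The other 54 genes, the 14 of heat shock among them, were not called by either fit.

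After 1 h of IFN-gamma, Sod2 had already risen. On 1454976_at mock cells read 8.25, 8.16, 8.32 and 8.16 and IFN-gamma cells 8.95, 8.70, 8.81 and 8.76, so every IFN-gamma array was above every mock array. The difference was 0.59 (SE 0.11, n = 4 and 4, adjusted p = 0.00656), a 1.5-fold rise, and it was called whichever of the 8 arrays was left out. On 1417193_at it was 0.49 (adjusted p = 0.0794, and 0.00456 with the block), and on 1448610_a_at 0.58 (adjusted p = 1, and 0.0387 with the block). On that last probe set replicate 2 of each treatment stood apart at 11.50 in mock, 11.28 after IFN-alpha and 12.14 after IFN-gamma, and these are arrays of high actin difference.

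Gclm at 1 h was called on 1439050_at with the block, where the difference of 0.55 had an adjusted p of 0.0448 (0.459 without). Its mock arrays read 6.73, 7.19, 7.16 and 7.04 and its IFN-gamma arrays 7.48, 7.63, 7.94 and 7.27. The groups did not overlap. Of the members by 1 probe set per gene, 0 of 32 were called (0.456% of all genes; 2 members with an unadjusted p under 0.05) and 1 with the block, Sod2. Of 67 member probe sets 1 was called (0.492% of all probe sets), and with the block 4, all higher (1.07%), of which 3 were of Sod2. Chac1, which degrades glutathione and is a target of Atf4, gave -0.51 (SE 0.19, adjusted p = 0.903). Of the wider list 0 of 58 were called without the block, and the metallothioneins Mt1 (0.79) and Mt2 (1.17), which bind zinc and other metals, were called with it (adjusted p = 0.045 and 0.0205; both 1 without).

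No member was called after IFN-alpha at either time, with or without the block. At 1 h 0 of 32 members passed, with 0 at an unadjusted p under 0.05, while 0.308% of all genes were called. The block gave 0 of 67 member probe sets, against 0.399%. The 4 genes of largest difference were Pdia4, a protein disulfide isomerase (0.74, 95% interval -0.30 to 1.79), Cebpb, a transcription factor of acute responses (0.72, -1.10 to 2.54), Hmox1 (0.48, -0.59 to 1.54) and Ppp1r15a, the Gadd34 phosphatase subunit that ends eIF2alpha phosphorylation (0.47, -0.42 to 1.35). In this fit, which has no block, the interval of each takes in both 0 and a doubling.

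At 3 h of IFN-alpha the count was again 0 of 32, with 0 at an unadjusted p under 0.05, against 1.83% of all genes (with array weights it was 1, Hsph1), and 0 of 67 probe sets with the block, against 2.11%. Hmox1 (0.47), Sesn2, a stress-induced regulator of mTORC1 (-0.38), Ddit3 (-0.34) and Herpud1, which helps dispose of faulty endoplasmic reticulum proteins (-0.34), differed most. Sod2 gave 0.07 to 0.09 on its 3 well measured probe sets and Gclm 0.02 on 1418627_at and 0.25 on 1439050_at, where IFN-alpha and mock arrays overlapped. The 95% interval of a member's difference had a median half-width of 0.51 at 1 h and 0.59 at 3 h, and the widest were 1.82 and 2.10. Of the wider list 0 of 58 genes were called at either time by either fit.

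**Figure D2:**
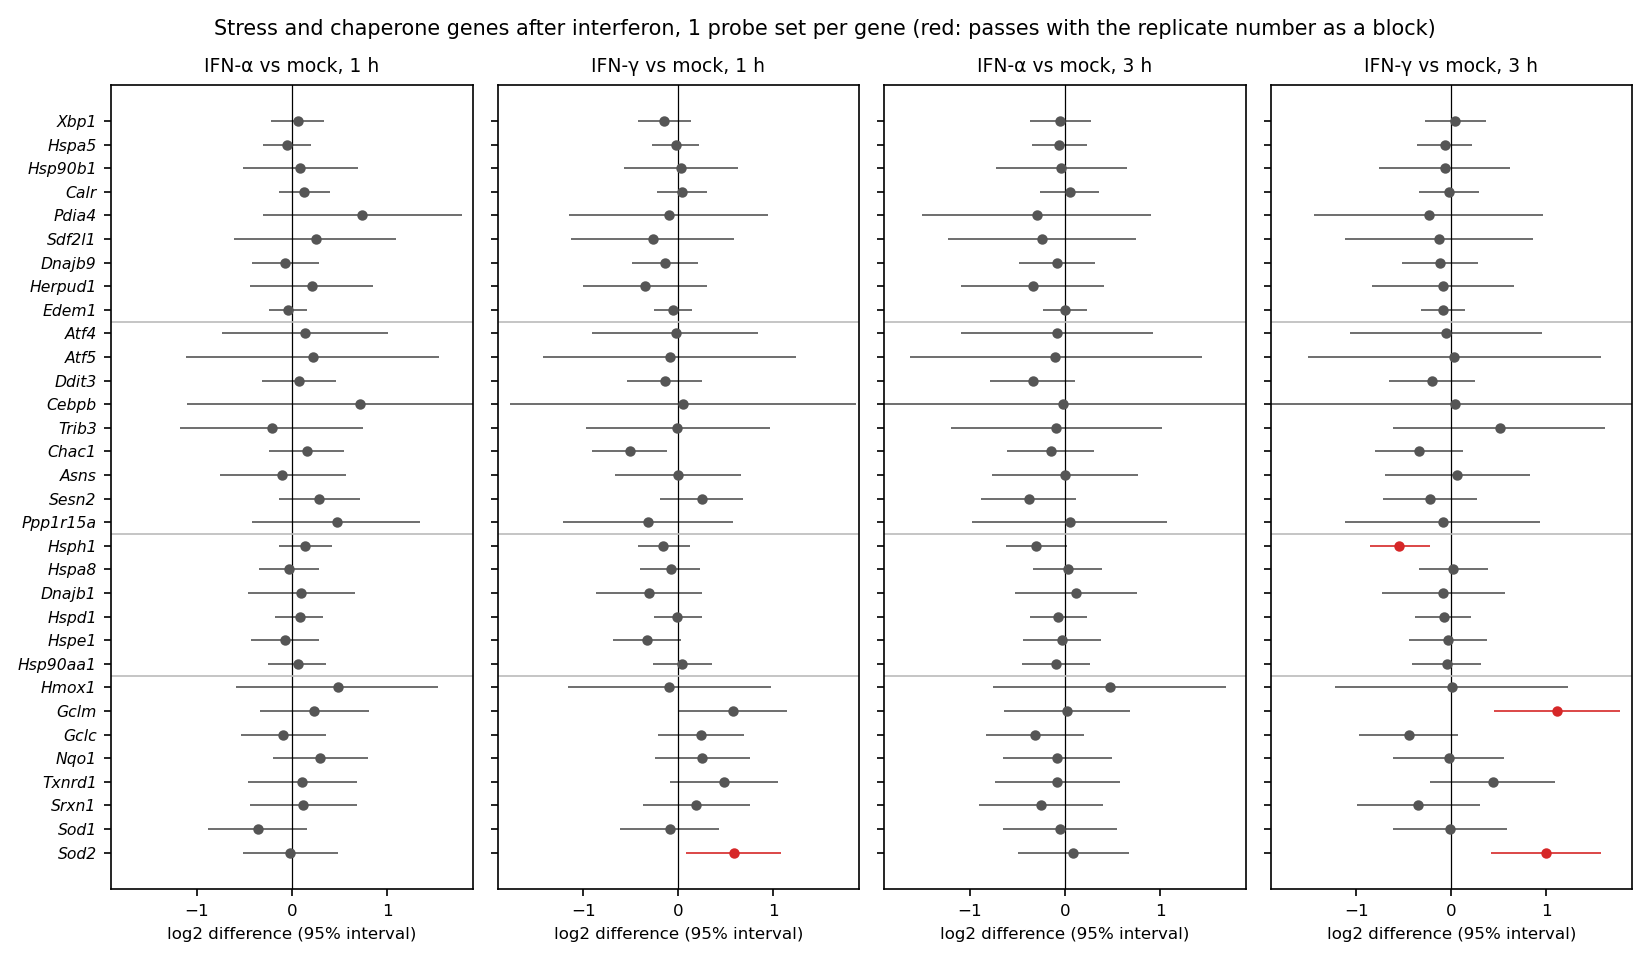
Log2 difference from mock of the same time for the 32 measured genes, 1 probe set each (points; lines are 95% intervals, which for Cebpb run past the axis), in 4 panels by interferon and time, ordered by role. The points coloured red passed with the replicate block: Sod2 at 1 h and Hsph1, Gclm and Sod2 at 3 h of IFN-gamma, and none after IFN-alpha.

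Set against each other directly, the 2 interferons differed in Sod2 and Gclm. At 3 h Sod2 was lower after IFN-alpha than after IFN-gamma by -1.38 on 1454976_at (SE 0.12, adjusted p = 1.57e-07) and -0.97 on 1417193_at (adjusted p = 9.71e-05). Gclm was lower by -0.85 on 1439050_at (SE 0.20, adjusted p = 0.0247), a call lost when any 1 of the 6 arrays was left out (adjusted p 0.0661 to 0.162) and kept with the block (0.00147). The block added Sod2 1448610_a_at (-0.90), Gclm 1418627_at (-1.08) and Txnrd1 1424487_x_at (-1.11, adjusted p = 0.00802, and 0.16 without). This made 6 member probe sets, all lower after IFN-alpha, against 3.12% of all probe sets, and 3 without the block, against 1.68%. By 1 probe set per gene 0 of 32 passed, against 1.87%, with 2 members at an unadjusted p under 0.05 (Gclm and Sod2). Mgst1 (-0.98, adjusted p = 0.0021) and Nupr1 (-1.19, adjusted p = 0.017) of the wider list were lower after IFN-alpha too, and with the block Atf3 (at least 1.59-fold) and Bach1 (-0.52). These comparisons use the same IFN-gamma arrays as those with mock and are no separate evidence.

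At 1 h Sod2 1454976_at was lower after IFN-alpha by -0.54 (SE 0.11, adjusted p = 0.0194), with IFN-alpha arrays at 8.21, 8.27, 8.48 and 8.10. All of these lay under the lowest IFN-gamma array. The adjusted p rose to between 0.05 and 0.11 without IFN-alpha replicate 1, 2 or 4 or IFN-gamma replicate 1 or 3. Chac1 was the 1 member higher after IFN-alpha with the block, and it was not called without it. Its arrays read 6.11, 6.66, 6.06 and 6.27 after IFN-alpha, 5.25, 5.83, 5.34 and 5.99 after IFN-gamma and 6.21, 6.30, 6.05 and 5.91 in mock. IFN-alpha and IFN-gamma did not overlap, and mock overlapped both. The difference was 0.67 (SE 0.19, adjusted p = 0.302, and 0.0451 with the block).

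In all 0 of 32 members differed between the interferons at 1 h by 1 probe set per gene, against 0.403%, with 3 at an unadjusted p under 0.05, and 1 of 67 probe sets, against 0.363%. With the block 1 was higher and 4 lower after IFN-alpha, against 0.86%. The 4 lower ones were the 3 Sod2 probe sets (adjusted p 0.00539 to 0.0341) and Gclm 1439050_at (-0.62, adjusted p = 0.0222). Of the wider list 0 of 58 differed.

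The response of Sod2 to IFN-gamma was larger at 3 h than at 1 h on its 4 probe sets, by 0.42 to 0.92. The difference between the 2 responses was 0.86 on 1454976_at (SE 0.16, adjusted p = 0.00677) and 0.57 on 1417193_at (adjusted p = 0.294, and 0.0261 with the block). On 1448610_a_at, which represents the gene, it was 0.42 and was called in neither fit. The 0.86 on 1454976_at holds 2 changes between 1 h and 3 h. The IFN-gamma mean rose from 8.81 to 9.24, and the mock mean fell from 8.22 to 7.8. For Gclm 1418627_at the difference between the responses was 0.54 (95% interval -0.34 to 1.41), which does not settle whether its response grew. By 1 probe set per gene 0 of 32 responses to IFN-gamma changed with time, against 0.977%, with 1 at an unadjusted p under 0.05 (Gclc, -0.69). Over probe sets it was 1 of 67, against 0.829%, and 2 with the block, both of Sod2, against 1.75%. Mgst1 of the wider list changed with the block (0.92, adjusted p = 0.00521, and 0.09 without). For IFN-alpha 0 of 32 changed, against 1.14%, with 2 at an unadjusted p under 0.05, and 0 of 67 probe sets with the block, against 1.45%. There the members of largest difference were Pdia4 (-1.04), Cebpb (-0.74), Sesn2 (-0.67) and Herpud1 (-0.55). The arrays at the 2 times also differ in 4sU dose and window, and the part of these in a change of response cannot be told apart from that of time.

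The members differed most between mock cells at 3 h and mock cells at 1 h. Ddit3, Sdf2l1, Hsph1 and Srxn1 were higher at 3 h, 1 from each role. Time since the medium change, 4sU dose and labelling window change together here and cannot be told apart. By 1 probe set per gene 4 of 32 members were called, all higher, against 9.66% of all genes tested, a share near that of the members. Over probe sets 14 of 67 were called, 13 higher and 1 lower, against 11.3% of all probe sets (1052 higher and 1136 lower of 19305). Hsph1, Txnrd1 and Srxn1 each had 2 of the 13, so several report the same gene. Nothing particular to the members as a group is read from this split. The median difference was 0.19 over the members and 0.10 over all genes.

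**Figure D3:**
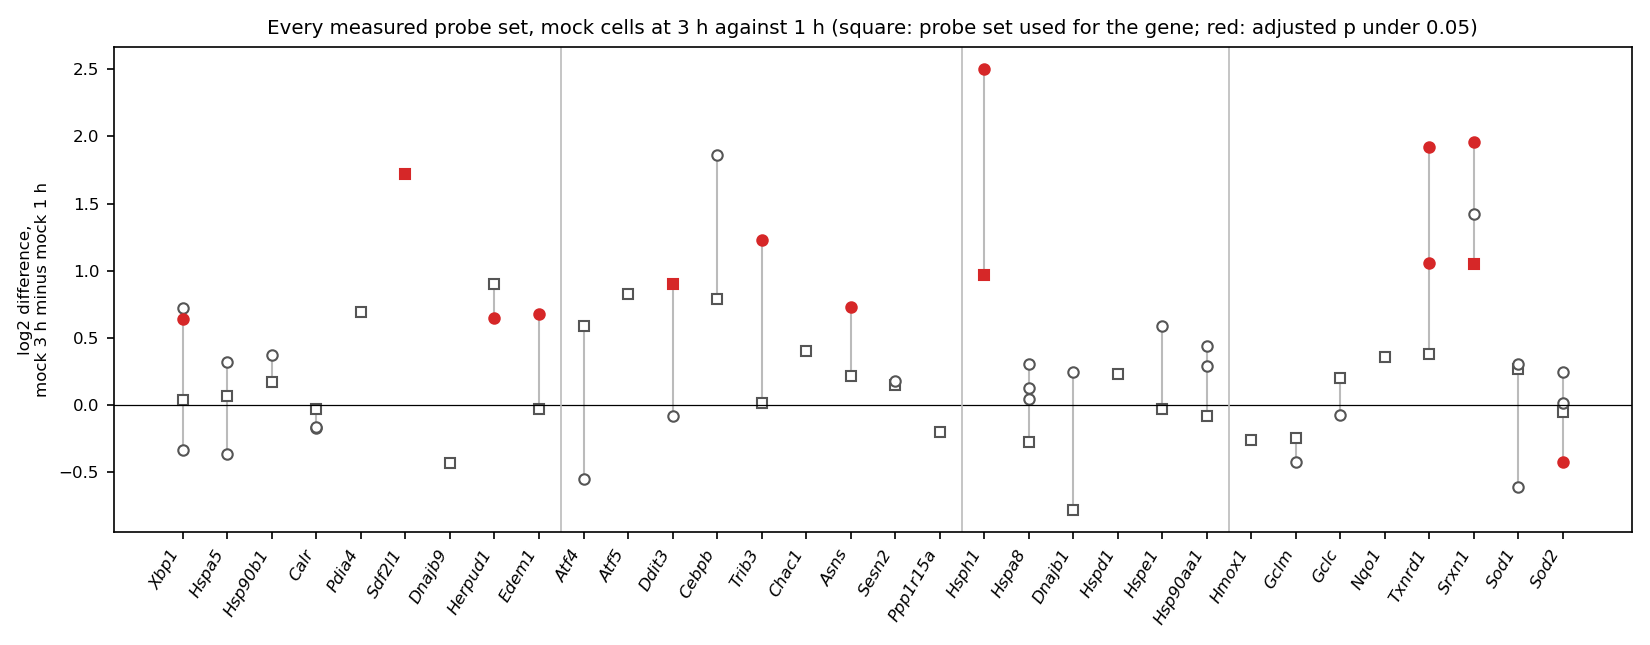
Log2 difference of mock cells at 3 h from mock cells at 1 h for each of the 67 measured probe sets, grouped by gene and ordered by role (squares are the probe set that represents the gene, circles its others, red those called). Probe sets of 1 gene span more than 1 unit for 7 of the 23 genes with several, and have both signs for 12. There are 13 red points above 0 and 1, of Sod2, below.

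In the unfolded protein response, Sdf2l1, a luminal protein that works with the chaperone Hspa5, read 4.08, 3.39, 3.18 and 4.99 in mock cells at 1 h and 5.52, 5.26 and 6.11 at 3 h. The groups did not overlap, though only 2 of the 4 arrays at 1 h were above log2 4. The difference was 1.72 (SE 0.44, adjusted p = 0.0161), which is at least 2.57-fold with values under log2 4 raised to it. Xbp1, the transcription factor that Ire1 activates by splicing, was higher on 1420011_s_at (0.64, adjusted p = 0.0295), while the probe set that represents it gave 0.04. Herpud1 was higher on 1435626_a_at (0.65, adjusted p = 0.0337) and Edem1, which extracts misfolded glycoproteins for disposal, on 1424065_at (0.68, adjusted p = 0.00933), with 0.90 and -0.03 on their other probe sets.

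The main luminal chaperones were not called. Hspa5 (BiP), the Hsp70 of the endoplasmic reticulum, had means of 12.86 and 12.93, a difference of 0.07 with a 95% interval of -0.20 to 0.34. Its other probe sets gave 0.32 and -0.36, uncalled. Hsp90b1 (Grp94) gave 0.17 and Calr (calreticulin) -0.03, while Dnajb9, a co-chaperone of Hspa5, gave -0.43 and Pdia4 0.69. Dnajb9 was the 1 of these 5 whose mock arrays did not overlap between the times.

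Promoter stretches with letters of the endoplasmic reticulum stress elements are shown for 3 of these chaperones and for Herpud1, as the textbook targets of this response among the members. Whether these sites were bound was not measured. The element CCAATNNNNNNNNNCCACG, searched on both strands, was found in 37 of 32851 promoters (0.113%), and those of Hspa5, Hsp90b1 and Calr are among them. The shorter ATTGGNCCACG was found in 10 promoters (0.0304%), with that of Herpud1 among them. Positions are chr2:34772000-34772068 (+), chr10:86705508-86705681 (-), chr8:84847050-84847118 (-) and chr8:94386347-94386417 (+) in GRCm38.p6, each written 5' to 3' on the gene's strand with the matches in capitals.
Hspa5: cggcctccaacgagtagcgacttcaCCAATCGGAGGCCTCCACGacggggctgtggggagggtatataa
Hsp90b1: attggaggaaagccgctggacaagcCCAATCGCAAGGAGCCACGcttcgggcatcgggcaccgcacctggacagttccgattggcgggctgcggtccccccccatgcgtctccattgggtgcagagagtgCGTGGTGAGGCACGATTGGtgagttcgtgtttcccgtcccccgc
Calr: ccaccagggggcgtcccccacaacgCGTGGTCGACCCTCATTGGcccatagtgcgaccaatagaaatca
Herpud1: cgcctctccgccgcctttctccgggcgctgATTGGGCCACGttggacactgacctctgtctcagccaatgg
Hsp90b1 holds 2 matches, 1 on each strand, and that of Calr is on the reverse strand. The match in Hspa5 starts 65 bases before the transcript start and that in Herpud1 52 bases before. Of the other motifs, the Atf4 site TGATGNAA (3.45% of promoters) is in Asns, Chac1 and Herpud1. The heat shock element GAANNTTC (6.69%) is in Asns, Hspb1, Hspd1, Hspe1 and Sod1, and the antioxidant response element TGACNNNGC (10.2%) in 9 members, Gclm and Txnrd1 among them.

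In the integrated stress response Ddit3, the CHOP transcription factor, read 6.75, 6.47, 6.77 and 7.04 at 1 h and 7.69, 7.78 and 7.49 at 3 h. The groups did not overlap, and the difference was 0.90 (SE 0.20, adjusted p = 0.00721), or 1.86-fold. Its other probe set, 1443897_at, lay under log2 4 in both means and gave -0.08. Trib3, a pseudokinase induced by Atf4 and Ddit3, read 5.53, 4.80, 5.10 and 5.35 on 1426065_a_at at 1 h and 6.28, 6.65 and 6.35 at 3 h. The rise was 1.23 (SE 0.22, adjusted p = 0.00103), but on 1456225_x_at it was 0.02. Asns, asparagine synthetase, was higher on 1451095_at (0.73, adjusted p = 0.00756), with 11.15, 10.76, 10.82 and 10.45 at 1 h and 11.55, 11.59 and 11.44 at 3 h, and gave 0.22 on its other probe set.

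Atf4 and Atf5, the transcription factors upstream, gave 0.59 and 0.83 on the probe sets that represent them and were not called. Mock arrays at 1 h were led down there by replicate 2. It read 9.66 for Atf4 where the other 3 read 10.86 to 11.21, and 6.54 for Atf5 where the others read 7.56 to 8.95. The other Atf4 probe set that passed the filter, 1438992_x_at, gave -0.55, also uncalled. On it replicate 2 was the highest mock array at 1 h, at 11.42 where the others read 9.87 to 10.76. Cebpb was wider still at 1 h, from 7.84 to 12.30, and gave 0.79. Chac1 (0.40), Sesn2 (0.15) and Ppp1r15a (-0.20) were not called either.

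In the heat shock group Hsph1 was higher on both probe sets. On 1425993_a_at mock cells read 10.20, 10.31, 9.86 and 10.11 at 1 h and 11.14, 10.93 and 11.20 at 3 h, a rise of 0.97 (SE 0.14, adjusted p = 0.000156) with no overlap. On 1423566_a_at they read 8.40, 5.56, 7.93 and 8.46 at 1 h and 9.94, 9.91 and 10.41 at 3 h, a rise of 2.50 (SE 0.72, adjusted p = 0.0291). Replicate 2 was far below its group on this second probe set and not on the first, and without it the second gave 1.83 (adjusted p = 0.105). The mock arrays at 3 h are also those against which Hsph1 was lower after IFN-gamma, so the 2 results share them. Dnajb1 (Hsp40), which brings clients to Hsp70, gave -0.78 on 1416755_at (adjusted p = 0.0863) and 0.25 on 1416756_at. Hspa8, Hspd1, Hspe1 and Hsp90aa1 gave between -0.27 and 0.23 on the probe sets that represent them. For Hspa8, Hspe1 and Hsp90aa1 these differences were negative, while their other measured probe sets gave 0.05 to 0.59, none called.

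In the oxidative stress group Srxn1, sulfiredoxin, which repairs overoxidised peroxiredoxin, read 8.49, 7.42, 7.98 and 8.24 on 1426875_s_at at 1 h and 9.09, 8.97 and 9.18 at 3 h. It rose by 1.05 (SE 0.29, adjusted p = 0.0237), by 1.96 on 1451680_at (adjusted p = 0.0281) and by 1.42 on 1425351_at (adjusted p = 0.0533). Txnrd1 rose by 1.92 on 1424486_a_at (SE 0.49, adjusted p = 0.0156), from 5.46, 4.25, 4.55 and 5.47 to 7.0, 6.62 and 6.94. It rose by 1.06 on 1424487_x_at (adjusted p = 0.0331), at least 1.80-fold with 2 of 4 arrays at 1 h above log2 4, and gave 0.38 on 1421529_a_at, uncalled. Sod2 fell by 0.42 on 1454976_at (SE 0.11, adjusted p = 0.0214), from 8.22 to 7.80 in the mean, and gave -0.05, 0.25 and 0.02 on its other 3 probe sets. Hmox1, Nqo1, Gclm, Gclc and Sod1 were not called.

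**Figure D4:**
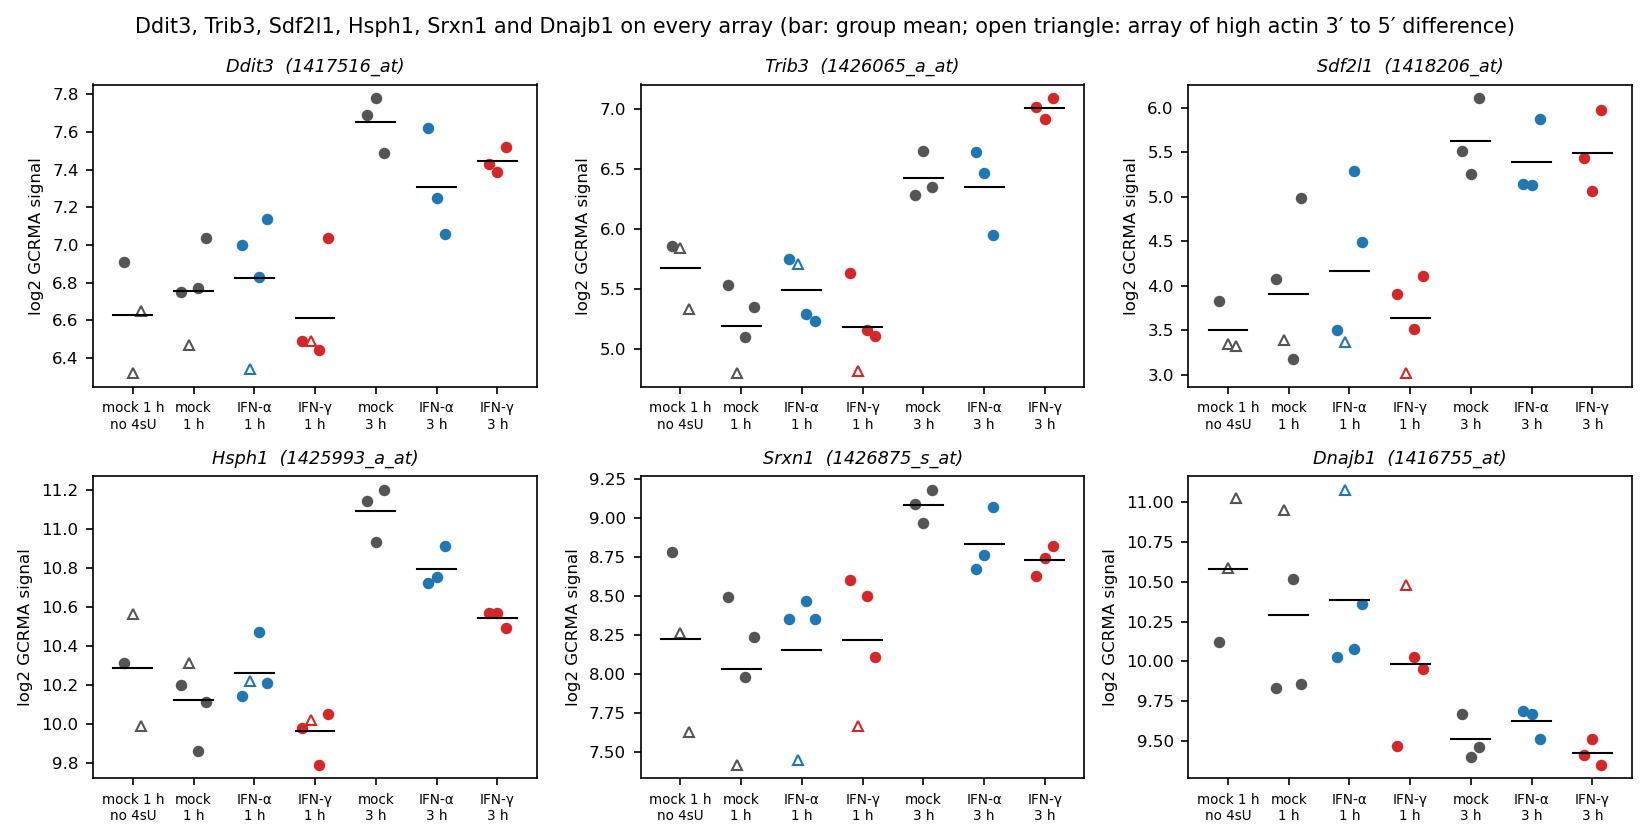
Log2 GCRMA signal of 6 probe sets on every array (points; bars are group means, open triangles the 5 arrays with a high actin 3' to 5' difference), by group along the horizontal axis. For Ddit3, Trib3, Sdf2l1 and Hsph1 the 3 mock arrays at 3 h lie above the 4 mock arrays at 1 h, as they do for Srxn1, and for Dnajb1, which was not called, they lie below.

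The calls between mock times moved with single arrays. Without mock replicate 2 at 1 h, or replicate 1 or 3 at 3 h, 2 of the 4 genes were left (Ddit3 and Hsph1), and Srxn1 was also lost without replicate 2 at 3 h. The calls on Xbp1, Herpud1, Txnrd1, the other Srxn1 probe set and Hsph1 1423566_a_at were lost without each of those 3 arrays as well. Edem1 was lost without replicate 3 at 3 h (adjusted p = 0.0501), and the lower Sod2 without replicate 3 at 1 h or replicate 1 or 3 at 3 h. Ddit3, Trib3, Asns and Hsph1 1425993_a_at were called without any 1 of the 7 arrays (adjusted p at most 0.0444, 0.0115, 0.0417 and 0.00195). Replicate 2 lay below the other arrays of the 1 h groups by a median of -0.41 over the 13 higher probe sets (11 negative), -0.15 over those not called and -0.03 over all probe sets. With the 5 arrays of high actin difference left out, the differences were of the same sign (Sdf2l1 1.55, Srxn1 0.84, Ddit3 0.80, Hsph1 1.03 on 1425993_a_at) and all 4 were called. In that fit Dnajb1 (-0.56) and Dnajb9 (-0.37) were lower, and 18.2% of all probe sets were called.

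Of the 58 genes of the wider list 8 were called between the mock times, 4 in each direction, against 9.66% of all genes. Of the 58 differences 46 were positive, with a median of 0.32 against 0.10 over all genes. Higher at 3 h were Cth, which makes cysteine (1.49, adjusted p = 0.000209), Nupr1 (0.90), Gpx1, a glutathione peroxidase (0.77), and Phgdh, the first enzyme of serine synthesis (0.61). Lower were Atf3 (at least 2.69-fold, with values under log2 4 raised to it, adjusted p = 0.000446), Dnajb4, an Hsp40 (-1.13), Cat, catalase (-0.71), and Eif2ak4, the amino acid sensing kinase Gcn2 (-0.69).

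Between mock cells at 1 h with and without 4sU 0 of 32 members were called, with 2 at an unadjusted p under 0.05, while 0% of all genes were called. The largest differences were those of Pdia4 (-0.85, 95% interval -1.97 to 0.28), Cebpb (0.78, -1.19 to 2.74), Sod1, the cytosolic superoxide dismutase (0.68, 0.12 to 1.24, adjusted p = 0.578), and Hmox1 (0.65, -0.50 to 1.80). Of the 3 arrays without 4sU 2 have a high actin difference, against 1 of 4 with it. Trib3 on 1426065_a_at gave -0.48 and Asns on 1451095_at -0.48, and neither was called. Of the wider list 0 of 58 genes were called.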

How the data were processed

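Total cellular RNA was measured on one-colour Affymetrix arrays. The authors summarised them with GCRMA, per the submitters' processing notes, and deposited log2 signals; the version, and whether all arrays went through 1 run, are not given in the sources used here. The values were used as deposited. Of 45101 probe sets, 64 controls were left out; the platform annotation gives 34945 a single symbol, 932 several and 9160 none.

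Probe sets above log2 4 on at least 3 arrays (19305, of 9421 genes) were fitted with limma 3.58.1 in R 4.3.3 (lmFit and eBayes, a mean for each of 7 groups, 17 residual degrees of freedom), for 10 comparisons with two-sided tests. The fit was tested on simulated data. The members and lists were chosen with earlier results of these data known. All members were counted; those called, and otherwise the 4 of largest difference, were named, as were called genes of a wider list (71, of which 58 measured). Alternatives were a replicate block, other filters, scalings and fits, and leaving out arrays.

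Same-numbered arrays of mock, IFN-alpha and IFN-gamma correlated above 0.1 in their deviations from group means (0.465 to 0.914 at 1 h, 0.128 to 0.646 at 3 h), so numbers were taken as pairing these. This hint comes from the data and not the labels. In that block fit the mock arrays without 4sU shared the blocks of the other 1 h arrays by number. By the limit of 0.1 they did not pair with mock arrays, and their spread entered the SEs and p-values with the block. The block left 12 residual degrees of freedom. Array number limits the precision. Promoter sequences are from RefSeq (GRCm38.p6); 29 of 33 members matched by symbol.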

Additional observations from a re-analysis of the deposited data

Results flagged for a closer look

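Of 132 checks of 4 arrays each, 12 found 1 array far from the other 3 (its gap to the nearest of them above 0.829 of the group's range), where chance gives about 1 in 20. Replicate 2, the array of high actin difference, was the distant one in 9 of the 12. In mock cells at 1 h it read 8.67 for Edem1 1451218_at (nearest array 8.5) and 6.59 for Herpud1 1435626_a_at (6.86). After 1 h of IFN-alpha it read 9.83 for Atf4 (11.13), 6.74 for Atf5 (8.68), 7.45 for Srxn1 1426875_s_at (8.35), 11.28 for Sod2 1448610_a_at (10.76) and 3.42 for Txnrd1 1424487_x_at (4.35). After 1 h of IFN-gamma it read 9.5 for Atf4 (11.02) and 5.93 for Hsph1 1423566_a_at (7.97). Other arrays were distant for Sesn2 and Gclc, where IFN-alpha replicate 1 at 1 h read 6.55 (5.99) and 8.06 (7.45), and for Ddit3, where IFN-gamma replicate 4 at 1 h read 7.04 (6.49).

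The response of Sod2 to IFN-gamma differed between the times by an interaction test, with 0.86 on 1454976_at. The difference of 0.57 on 1417193_at was called with the replicate block and with array weights, and not in the reported fit. The response was larger at 3 h on both. On 1448610_a_at, which represents the gene, the difference of 0.42 was called neither in the reported fit nor with the block.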

How the results depend on the processing

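Counts here are of genes by 1 probe set, where the reported count was 4 for the mock times and 0 elsewhere. With the replicate block they were 1 (Sod2) for IFN-gamma and 2 between the interferons at 1 h, and 3 and 2 at 3 h. Of all 9421 genes it called 76 higher and 21 lower for IFN-gamma at 1 h, and 305 and 72 at 3 h. Between the interferons it called 42 and 37 at 1 h, and 168 and 186 at 3 h. For the mock times the block gave 7 members, beside 1549 genes higher and 997 lower of all 9421. There 17 member probe sets were higher and 5 lower, beside 2975 and 2598 of all 19305. A probe set of Dnajb9, Dnajb1, Cebpb, Gclm and Sod1 was each newly called. Of the wider list 16 genes were higher and 6 lower. By the limit of 0.1 the numbers do not pair mock arrays between times (correlations of deviations -0.232 to 0.127). Nor do they pair mock arrays with those without 4sU (0.0809 to 0.802), where the block gave 0 genes and 1 probe set, Sod1 1451124_at. With only the groups compared in the fit they were 3 for IFN-gamma and 2 between the interferons at 3 h, and 2 for the mock times. Array weights gave 1 (Hsph1) for IFN-alpha, 7 for IFN-gamma and 3 between the interferons at 3 h, and 7 for the mock times. The mean of a gene's probe sets gave 2 for IFN-gamma and 2 between the interferons at 3 h. Without the 5 arrays of high actin difference it was 2 (Hsph1 and Sod2) for IFN-gamma and 1 between the interferons at 3 h, and 7 for the mock times. Any probe set of the gene, an alternative chosen after seeing the data, gave 1 for IFN-gamma and 1 between the interferons at 1 h, 2 and 2 at 3 h, 1 for the change of the IFN-gamma response and 11 for the mock times. Leaving out 1 array gave 2 to 5 for the mock times and 0 elsewhere. For fits other than the block, no share of all genes is set beside the counts here. Nothing particular to the members is read from them. No result reversed under the alternatives run. Of the values of single named probe sets under alternatives, 516 kept their side of the threshold, 45 passed it newly and 76 no longer passed. The 4 arrays or fewer in a group, and the wide spread of the 1 h groups, limit what could be called. The reported fit shares 1 spread per probe set over the 7 groups, so the limit holds at 3 h as well as at 1 h.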
